A study of Mus musculus with 10 samples.

Results

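Complement was examined through 8 genes measured in a mouse breast cancer cell line: the classical pathway genes C1ra, C1s and C4b, the central component C3, the alternative pathway gene Cfb, and the regulators Serping1, Cd55 and Cd59a. They were taken by gene symbol from a table of 17171 genes, and 8 of 8 were found. The PyMt line was derived from mammary tumors of PyMttg mice, in which the MMTV promoter drives the polyoma middle T antigen in mammary epithelium. The cells were grown in low-adherence plates in supernatants of sorted CD4+ T cells that had been stimulated and rested ex vivo, in medium that contained insulin. Test supernatants came from T cells of Tslp-PyMttg mice, whose Tslp transgene is driven by the keratin 14 promoter. Control supernatants were listed as coming from Tslp-PyMttg TslprKO and PyMttg mice, and the T cells were stimulated with antibodies to CD3 and CD28 plus TSLP (thymic stromal lymphopoietin). The libraries fell into 5 label sets of 2: Blank and Control, both titled as control supernatant (4 libraries), and Test1, Test2 and Test3, all titled as test supernatant (6 libraries). The labels do not explain the tag Blank or say how the 3 test sets differ, the growth protocol also names plain medium, and the donor mouse of each library, its age and the exposure time are not stated. Nothing says that libraries came from separate cultures, so every p-value here measures only the spread between libraries, which may be technical.

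Complement is a cascade of plasma proteins that marks cells and microbes for uptake or lysis. C1r and C1s are the paired serine proteases of the C1 complex, and C1s cleaves C4 and C2 to form the classical C3 convertase. C3 is the protein on which all activation routes converge, and factor B (Cfb) supplies the protease of the alternative convertase that amplifies C3 cleavage. C1 inhibitor (Serping1) blocks C1r and C1s, CD55 speeds the decay of the convertases on the cell surface, and CD59 blocks assembly of the membrane attack complex. The liver makes most plasma complement, and epithelial cells can also transcribe C3, factor B and the C1 proteases in response to inflammatory cytokines such as interferon-gamma and tumor necrosis factor.

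On the GRCm38 (mm10) assembly, C1ra spans chr6:124512621-124523440 and C1s, which RefSeq names C1s1, spans chr6:124530344-124542392, only 6.90 kb apart. C4b (chr17:34728139-34743902) and Cfb (chr17:34856374-34862514) lie 112 kb apart, and C3 (chr17:57203967-57228136) is on the same chromosome but far from both. Serping1 spans chr2:84765360-84775444, Cd59a spans chr2:104095753-104115410 and Cd55 spans chr1:130429798-130465009. RefSeq promoter windows of 300 bases (250 before and 50 after the start, GRCm38.p6) were matched for 5 of 8 members, namely C1ra, C1s, C3, Cd55 and Cd59a. The 250 bases before the start are shown for C3, C1s and C1ra, the 3 tested members with the largest differences between Control and Blank in log2(FPKM + 1); each is read 5′ to 3′ in the direction of the gene, and capitals mark a C/EBP motif.
C3 (chr17:57228137-57228386, - strand): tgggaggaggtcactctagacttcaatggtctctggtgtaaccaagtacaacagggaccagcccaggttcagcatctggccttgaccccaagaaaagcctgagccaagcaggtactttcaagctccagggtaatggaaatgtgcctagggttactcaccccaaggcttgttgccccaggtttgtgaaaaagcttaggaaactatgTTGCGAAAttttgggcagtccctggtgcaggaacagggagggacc
C1s (chr6:124542360-124542609, - strand): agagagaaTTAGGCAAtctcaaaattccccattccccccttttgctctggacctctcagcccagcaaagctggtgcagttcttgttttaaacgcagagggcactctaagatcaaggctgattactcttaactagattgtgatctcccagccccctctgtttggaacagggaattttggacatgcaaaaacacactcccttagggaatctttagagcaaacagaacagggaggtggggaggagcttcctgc
C1ra (chr6:124512371-124512620, + strand): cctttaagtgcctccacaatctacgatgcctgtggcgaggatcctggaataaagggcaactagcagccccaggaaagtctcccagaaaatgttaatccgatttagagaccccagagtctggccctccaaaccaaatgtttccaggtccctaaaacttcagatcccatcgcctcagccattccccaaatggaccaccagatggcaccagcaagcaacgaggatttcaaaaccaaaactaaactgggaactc

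Both strands of the windows were searched for the interferon-gamma activated site TTCNNNGAA (GAS), the core of the interferon-stimulated response element GAAANNGAAA (ISRE), the NF-κB consensus and the C/EBP motif TTGCNNAA, the last chosen after the promoters had been read. C3 held a C/EBP match at position -45 from the start, and C1s held one at -242. C1s has a second RefSeq start, whose window (chr6:124542322-124542571 before the start) held none of the motifs. The C1ra window held a GAS match (TTCCCTGAA) at position 33 and a C/EBP match at position 17, both past the start and so outside the printed bases. Cd59a held an ISRE core match (GAAAGGGAAA) at -187, and none of the motifs was found in the Cd55 window. Of 32851 RefSeq windows of the same length, 8.3% held the GAS motif, 3.44% the ISRE core, 8.46% the NF-κB consensus and 10.8% the C/EBP motif. These matches are letters in a window, not measured binding sites.

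Values were FPKM, the number of fragments of a transcript divided by its length and by the depth of the library, so that levels of different genes can be set side by side. The spacing of low values gave an estimated 12.45 to 13.1 M reads per control library and 10.75 to 14.65 M per test library. These are estimates, and they move with the transcript length assumed. Of 6 epithelial markers 5 were in the table, and Krt8 (375 to 992 FPKM) and Krt18 (730 to 1882 FPKM) were high in all 10 libraries. The others were lower, with Cdh1 at 8.69 to 14.24 FPKM, Epcam at 3.59 to 8.19 FPKM and Cldn7 at 0.47 to 2.3 FPKM. Of the other cell types looked for, the 6 of 6 fibroblast markers in the table summed to at most 1.83 FPKM. Of macrophage markers 5 of 6 were in the table, with a sum of 13.25 to 19.01 FPKM in control and 11.07 to 22.09 FPKM in test. Csf1r and Itgam stayed at or below 0.11 FPKM, while Cd68 and Cd14 were at 4.65 to 12.31 FPKM. The 1 of 6 hepatocyte markers in the table, Apoa1, stayed at or below 0.08 FPKM. Only 1 of 6 T cell markers was analysed, Cd3d, at 0.98 to 16.65 FPKM with the highest value in Test3-1. In bulk RNA, fewer cells that express a gene and less RNA per cell cannot be told apart. Of the 8 members, C1ra, C1s, C4b and C3 reached 1 FPKM in at least 4 libraries and were tested together with 11169 genes in all, while Cfb, Serping1, Cd55 and Cd59a did not.

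**Figure D1:**
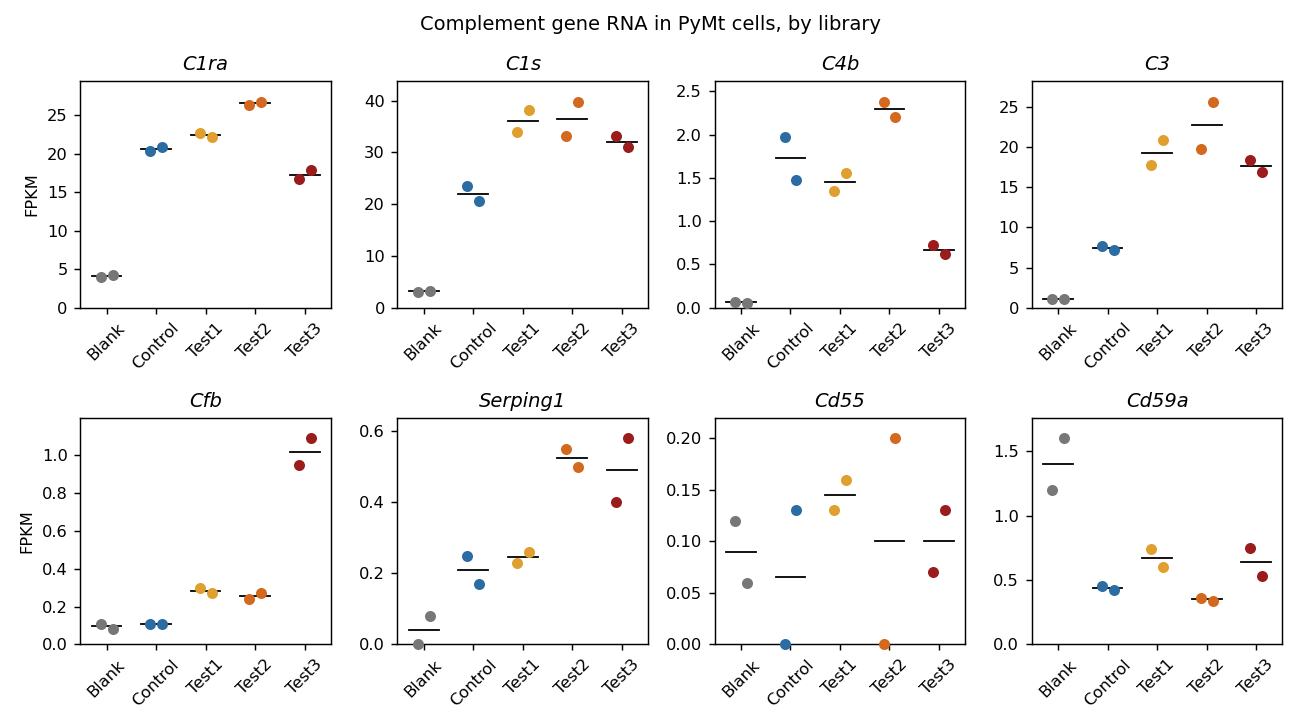
FPKM (vertical axes, each from 0 on its own scale) of the 8 complement genes in the 10 libraries, grouped by label set; each point is 1 library and each line the mean of 2. C1ra, C1s, C4b and C3 are lowest in Blank, Cfb is highest in Test3 (0.95 and 1.09 FPKM), and Cd59a is highest in Blank (1.2 and 1.6 FPKM).

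The first comparison asked which complement genes differed between PyMt cells kept in test and in control supernatant, all 6 test libraries against all 4 control libraries. C3 and C1s rose in the test libraries, while C1ra and C4b did not pass the test. C3 was at 1.09 and 1.13 FPKM in Blank, 7.67 and 7.15 in Control, 17.77 and 20.91 in Test1, 19.76 and 25.69 in Test2, and 18.46 and 16.9 in Test3. Every test library was above every control library, and Control lay between Blank and the test sets. The control mean was 4.26 ± 3.64 (SD, n = 4) and the test mean 19.9 ± 3.17 (SD, n = 6), and the difference in log2(FPKM + 1) was 2.30 (SE 0.39, limma adjusted p = 0.00799).

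C1s was at 2.99 and 3.28 FPKM in Blank, 23.5 and 20.58 in Control, 34 and 38.19 in Test1, 33.1 and 39.83 in Test2, and 33.18 and 31.04 in Test3. Again no test library fell into the control range. The control mean was 12.6 ± 11.0 (SD, n = 4) and the test mean 34.9 ± 3.38 (SD, n = 6), with a log2 difference of 1.88 (SE 0.47, limma adjusted p = 0.0347). This call was close to the threshold. Leaving out any 1 library other than the 2 Control libraries moved its adjusted p above 0.05, to between 0.0523 and 0.127, while C3 stayed called with any 1 library left out (highest adjusted p 0.0322).

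C1ra, the protease that activates C1s, was at 3.92 and 4.21 FPKM in Blank, 20.33 and 20.88 in Control, 22.63 and 22.16 in Test1, 26.31 and 26.75 in Test2, and 16.73 and 17.85 in Test3. Test and control overlapped, because Control lay above Test3. The log2 difference between test and control was 1.12 (SE 0.41, limma adjusted p = 0.118), and it passed only against a control group with 1 Control library fewer (adjusted p = 0.0364 without Control-1 and 0.0467 without Control-2) or against Blank alone (2.06e-05). C4b, the mouse gene for complement C4, was at 0.07 and 0.05 FPKM in Blank, 1.97 and 1.48 in Control, 1.35 and 1.55 in Test1, 2.38 and 2.2 in Test2, and 0.72 and 0.62 in Test3. Both Control libraries lay within the test range and both Blank libraries far below it, and the log2 difference was 0.49 (SE 0.33, limma adjusted p = 0.395). Against Control alone the sign turned, to -0.19.

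Of all tested genes 2.95% were called higher in test and 4.92% lower (7.87% in all), against 2 of 4 tested members higher and 0 lower. The median log2 difference was 1.50 over these 4 members and -0.03 over all tested genes. Members were chosen with earlier results of these data known, so this median and those given below are descriptions only. The share of all called genes that were higher depended on scaling: it was 37.5% as deposited, 25.5% with each library scaled to the same sum and 49.2% with median-of-ratios scaling, and C3 and C1s were higher and called under each. With each library scaled to the same sum the median over all genes moved to -0.10. Treating the label set rather than the library as the unit left no member called (C3 adjusted p = 0.268, C1s 0.323). That setting called 0 of all tested genes.

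The 5 label sets were also compared with each other in 1 fit. Control against Blank asked whether the 2 kinds of library titled control supernatant differed. They differed in each of the 4 tested members, all higher in Control, against 4.55% of all genes called higher and 1.39% lower (5.94% in all). The filter on low values favours this direction. C4b passed it through Control, Test1 and Test2 alone, while Cd59a, highest in Blank, did not pass. With no filter C4b was still called higher (limma adjusted p = 0.000981) and Cd59a was called lower (0.0137). C1s rose from a mean of 3.13 FPKM to 22.0 (7.03-fold in FPKM; log2 difference 2.48, SE 0.14, limma adjusted p = 1.30e-06). C1ra rose from 4.07 to 20.6 FPKM (5.07-fold; log2 difference 2.09, SE 0.11, limma adjusted p = 1.16e-06). C3 rose from 1.11 to 7.41 FPKM (6.68-fold; log2 difference 1.99, SE 0.15, limma adjusted p = 1.84e-05). The C1 proteases and C3 thus differed by 5- to 7-fold between libraries carrying the same title.

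C4b also rose, from 0.06 to 1.73 FPKM (log2 difference 1.36, SE 0.18, limma adjusted p = 0.000988). Its FPKM ratio of 28.75 rests on an estimated 4 to 5 reads in each Blank library, against 99 to 137 in each Control library, and is therefore imprecise. The median over the 4 members was 2.04 on the log2 scale, beside -0.03 over all genes. It covers only members that passed the filter, which left out Cd59a, lower in Control. The epithelial keratins moved with this comparison: Krt8 averaged 545 FPKM in Blank and 979 in Control, and Krt18 averaged 781 and 1777. Cdh1 (12.1 and 11.8 FPKM) did not move with them, and Epcam averaged 3.92 and 5.22 FPKM. The summed level of the 5 markers ran from 1299 to 2789 FPKM in control and from 1124 to 2887 FPKM in test libraries. Their part in the complement differences was not tested.

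**Figure D2:**
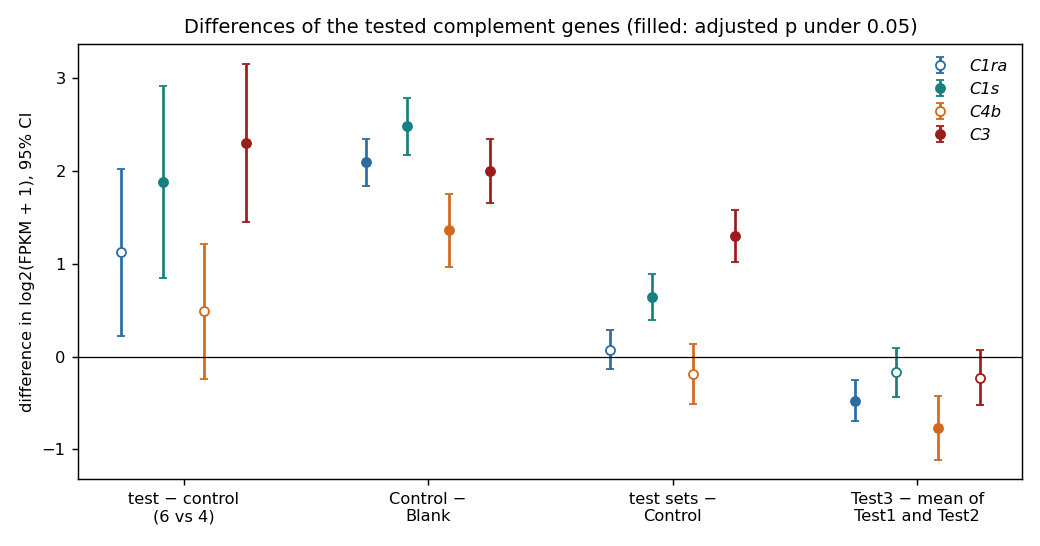
Differences in log2(FPKM + 1) with 95% confidence intervals (vertical axis) for C1ra, C1s, C4b and C3 in 4 comparisons (horizontal axis); filled points had an adjusted p under 0.05. All 4 genes were higher in Control than in Blank, C1s and C3 were also higher in the test sets than in Control, and C1ra and C4b were lower in Test3 than in Test1 and Test2.

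The mean of the test sets was set against Control alone, which removes the low Blank libraries. C3 and C1s were higher in test, and C1ra and C4b did not differ detectably, against 2.00% of all genes higher and 1.61% lower (3.61% in all). C3 was 2.69-fold higher in FPKM (log2 difference 1.30, 95% interval 1.02 to 1.58, limma adjusted p = 0.000319). C1s was 1.58-fold higher (log2 difference 0.64, 95% interval 0.39 to 0.89, limma adjusted p = 0.0122). The call of C1s was lost without Control-1 (adjusted p = 0.0536) or Control-2 (0.123). It was also lost in a fit of the test and Control libraries only, without Blank and without the division into sets (0.0844). C1ra differed by 0.07 (95% interval -0.13 to 0.28, limma adjusted p = 0.768) and C4b by -0.19 (95% interval -0.51 to 0.13, limma adjusted p = 0.583). The median over the 4 members was 0.36, beside -0.03 over all genes.

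Each test set could also be compared with Control separately, in contrasts added after the values had been seen. C3 was higher than Control in each: by 1.27 in Test1 (adjusted p = 0.00203), 1.49 in Test2 (0.00265) and 1.15 in Test3 (0.00154), all log2 differences from limma. C1s was higher by 0.69 in Test1 (adjusted p = 0.0287) and 0.53 in Test3 (0.0412), and its difference of 0.70 in Test2 missed the threshold (0.0726) in a comparison that called fewer genes, 0.573% against 2.42% for Test1 and 9.06% for Test3. C4b was called lower than Control in Test3 (log2 difference -0.70, limma adjusted p = 0.0369), and its differences were -0.15 in Test1 (0.793) and 0.28 in Test2 (0.64). C1ra passed in none of them, with differences of 0.11, 0.35 and -0.24 for Test1, Test2 and Test3 (adjusted p = 0.729, 0.307 and 0.221).

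Test3 was compared with the mean of Test1 and Test2 to see whether the test supernatants differed. C4b and C1ra were lower in Test3, and C1s and C3 were not detectably different, against 3.13% of all genes called lower and 3.35% higher (6.48% in all). C4b averaged 0.67 FPKM in Test3, 1.45 in Test1 and 2.29 in Test2 (log2 difference -0.77, SE 0.15, limma adjusted p = 0.0188). It passed the filter through Control, Test1 and Test2 alone, as its Test3 and Blank libraries were below 1 FPKM. The testing of C4b thus depended on the sets where it was high. With no filter it was still called lower in Test3 (limma adjusted p = 0.0123). C1ra averaged 17.3 FPKM in Test3, 22.4 in Test1 and 26.5 in Test2 (log2 difference -0.47, SE 0.10, limma adjusted p = 0.0216). Both Test3 libraries were below the 4 other test libraries for each gene, as were 9.62% of all genes of the table. Taken separately, both genes passed against Test2 (limma adjusted p = 0.0122 for C4b and 0.0154 for C1ra, with 6.56% of all genes called) and neither passed against Test1 (0.155 and 0.152, with 2.75% called).

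No such drop was detectable for C1s, the partner of C1ra, or for C3. C1s differed by -0.17 (95% interval -0.43 to 0.10, limma adjusted p = 0.430) and C3 by -0.23 (95% interval -0.52 to 0.07, limma adjusted p = 0.339). The C4b and C1ra calls depended on single libraries. Without Test1-2, Test3-1 or Test3-2 neither was called (adjusted p 0.0578, 0.194 and 0.0534 for C1ra, 0.062, 0.0965 and 0.0637 for C4b). C1ra was also lost without either Blank library (0.051), which enter only through the shared estimate of spread, and C4b without Test2-1 (0.0641). The median over the 4 members was -0.35, beside -0.01 over all genes. Krt8 averaged 418 FPKM in Test3, against 835 in Test1 and 920 in Test2, and Krt18 averaged 848, against 1403 and 1699. Epcam (6.13, against 5.86 and 6.58) and Cdh1 (10.9, against 13.1 and 9.12) lay between the other sets. The macrophage marker sum averaged 12.2 FPKM in Test3, against 15.0 and 20.7. Cd3d was at 16.65 FPKM in Test3-1 but at 5.17 in Test3-2, within the range of the other test libraries (2.25 to 5.67). The part of these markers in the difference was not tested.

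Between Test1 and Test2, 0 of 4 tested members passed in limma. Of all genes 0.116% were called higher in Test1 and 0.0448% lower (0.161% in all). Among the members 1, C4b, had an unadjusted p under 0.05, with no share of all genes to set beside it. C4b was lower in Test1 by 0.43 on the log2 scale (log2 difference -0.43, 95% interval -0.82 to -0.03, limma adjusted p = 0.410). The other members were closer still, with C1s at -0.01 (95% interval -0.32 to 0.29).

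The neighbouring protease genes C1ra and C1s, whose products work as a pair, were read in the same libraries, and their ratio was followed from set to set. The ratio of C1s to C1ra in FPKM was 0.763 and 0.779 in Blank, 1.16 and 0.986 in Control, 1.50 and 1.72 in Test1, 1.26 and 1.49 in Test2, and 1.98 and 1.74 in Test3. Blank libraries held less C1s than C1ra RNA per length, Control libraries held about as much of each, and every test library held more C1s. The log2 ratio was higher in test than in control by 0.82 on average. The ratios were chosen after their values had been seen and are given as a description, with no test. A ratio within a library does not depend on how that library was scaled. It can depend on how reads shared with relatives were counted, which is not given. C1ra shares 48.0% of its 50-base stretches with C1rb and C1s 24.3% with C1s2. Which of the genes was higher in a library is therefore uncertain.

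The ratio of C3 to C1s had another pattern. It was 0.365 and 0.345 in Blank, 0.326 and 0.347 in Control, 0.523 and 0.548 in Test1, 0.597 and 0.645 in Test2, and 0.556 and 0.544 in Test3. It was nearly the same in all 4 control libraries, although C3 and C1s themselves differed 6.68- and 7.03-fold between Control and Blank, and it was higher in all 6 test libraries (log2 difference 0.72). The third ratio formed, C3 to C4b, overlapped between test and control (8.30 to 27.3 against 3.89 to 22.6) and rests in Blank on few C4b reads. With each library left out in turn the log2 difference ran from 0.73 to 0.93 for C1s to C1ra and from 0.68 to 0.74 for C3 to C1s. C3 to C4b was not put through this. Because the ratios were chosen after their values had been seen, these ranges describe the dependence on single libraries and are no test.

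**Figure D3:**
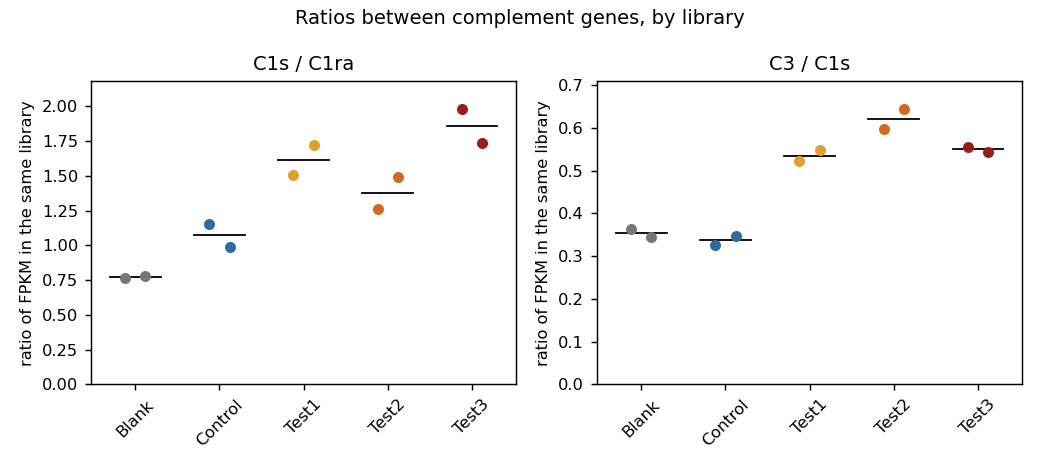
Ratio of FPKM within each library (vertical axes, from 0) for C1s to C1ra and for C3 to C1s, by label set; points are libraries and lines are means of 2. C1s to C1ra runs from 0.763 in Blank to 1.98 in Test3, and C3 to C1s is at 0.326 to 0.365 in the 4 control libraries and 0.523 to 0.645 in the 6 test libraries.

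Below the filter on low values, Cfb had a pattern of its own. It was at 0.11 and 0.08 FPKM in Blank, 0.11 and 0.11 in Control, 0.3 and 0.27 in Test1, 0.24 and 0.27 in Test2, and 0.95 and 1.09 in Test3. All test libraries lay above all control libraries, Blank and Control were level, and Test3 stood above Test1 and Test2, as it did for 13.5% of all genes. The counts behind these values were small, an estimated 3 to 4 reads in each control library, 9 to 11 in Test1 and Test2, and 28 to 36 in Test3.

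The exact two-sided permutation test of Cfb in test against control, over the 210 splits of 6 and 4 libraries, gave p = 0.0333 (the smallest this design allows is 0.00476). When the filter was dropped and all 17171 genes were fitted, Cfb did not pass in test against control (log2 difference 0.43, limma adjusted p = 0.177, with 1.22% of all genes called higher). In the same fit it was higher in the test sets than in Control (0.42, limma adjusted p = 0.00771, with 1.09% of all genes higher) and higher in Test3 than in Test1 and Test2 (0.67, limma adjusted p = 0.00126, with 2.34% higher). Against the mean of Test1 and Test2, Test3 thus had more Cfb RNA and less RNA of C4b, which lies close to Cfb on chromosome 17. Compared with Blank, C4b was higher in Test3 (log2 difference 0.66, limma adjusted p = 0.0265). The C4b call against Test1 and Test2 depended on single libraries, and Cfb rests on few reads.

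In all, 2.32% of listed genes had every test library above every control library, and among the 8 members these were C3, C1s and Cfb. Another 4.43% of genes had every test library below, which held for no member.

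Among the regulators, Serping1 was at 0 and 0.08 FPKM in Blank, 0.25 and 0.17 in Control, 0.23 and 0.26 in Test1, 0.55 and 0.5 in Test2, and 0.4 and 0.58 in Test3. The lowest test library lay within the control range, so the groups overlapped, and the values rest on an estimated 0 to 14 reads. The exact two-sided permutation test of test against control gave p = 0.0143, and the fit of all genes did not call it (log2 difference 0.33, limma adjusted p = 0.0704). C1 inhibitor RNA was thus at most 0.58 FPKM in libraries in which its targets C1ra and C1s reached 26.75 and 39.83 FPKM.

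Cd59a, the CD59 gene of most mouse tissues, was at 1.2 and 1.6 FPKM in Blank, 0.45 and 0.42 in Control, 0.74 and 0.6 in Test1, 0.36 and 0.34 in Test2, and 0.75 and 0.53 in Test3. Blank was highest and all other sets were below 1 FPKM, whereas C1ra, C1s, C4b and C3 were lowest in Blank. Control averaged 0.311 of the Blank level, and the fit of all genes without the filter called Cd59a lower in Control than in Blank (log2 difference -0.74, limma adjusted p = 0.0137, with 0.844% of genes lower). Test and control as a whole overlapped (exact two-sided permutation p = 0.229), on an estimated 7 to 38 reads.

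Cd55 was listed at 0 in Control-1 and Test2-1 and at 0.06 to 0.2 FPKM in the other 8 libraries, an estimated 0 to 6 reads. No difference was detectable at this depth (exact two-sided permutation p = 0.371). For the tested members the same exact permutation test gave p = 0.00476 for C3 and C1s, 0.0476 for C1ra and 0.229 for C4b, so that 5 of the 8 unadjusted tests fell under 0.05, all with test higher, and 3 did when either Blank library was left out. Of all 17171 genes 17.5% had an unadjusted exact p under 0.05, 6.15% with test higher.

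Several members have close relatives whose reads could be shared. Of the 50-base stretches of the C1ra transcript, 48.0% occur unchanged in C1rb, and C1rb was at 0 to 0.09 FPKM. For C4b the share with C4a was 35.2%, and C4a was at 0 to 0.11 FPKM. C1s shares 24.3% of such stretches with C1s2, Cd55 13.3% with Cd55b and Cd59a 3.98% with Cd59b, and these 3 relatives were not analysed here. How reads that match both copies were counted is not given in the sources used here, so values of these genes are uncertain to that extent.

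The rest of the complement system was covered by a list of 49 further genes, of which 36 were in the table, 9 passed the filter and 27 never reached 1 FPKM. None of the 9 passed in test against control, Control against Blank, the test sets against Control, or Test1 against Test2 in limma. The numbers with an unadjusted p under 0.05 were 2, 1, 0 and 1. Shares of all genes with such a p are not given here, so these unadjusted counts cannot be weighed. The most abundant were C1qbp, a mainly mitochondrial protein that binds the globular heads of C1q (104 to 147 FPKM), clusterin (Clu), a chaperone and inhibitor of the terminal complex (58.2 to 89.5 FPKM), Colec12, a scavenger collectin (32.3 to 46.4 FPKM), and Cr1l, which encodes the rodent membrane regulator Crry (21.2 to 28.4 FPKM). In test against control C1qbp differed by 0.24 (limma adjusted p = 0.176) and Colec12 by -0.25 (0.141), and the differences of Clu (-0.15, 0.505) and Cr1l (-0.04, 0.834) were smaller. Cr1l was thus the most abundant membrane regulator measured, at over 21 FPKM in every library, where Cd55 and Cd59a were at or below 1.6 FPKM.

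In Test3 against Test1 and Test2, 1 of the 9 was called higher and 1 lower, against 3.35% and 3.13% of all tested genes. An unadjusted p under 0.05 was seen for 6 of the 9, with no share of all genes to set beside it. Masp1, a protease of the lectin pathway, was at 13.4 and 15.54 FPKM in Blank, 12.7 and 13.32 in Control, 10.17 and 7.75 in Test1, 7.96 and 8.7 in Test2, and 19.73 and 17.12 in Test3. It was highest in Test3 and lowest in Test1 and Test2 (log2 difference 1.01, SE 0.13, limma adjusted p = 0.0022), while the same contrast was negative for C1ra and C4b. Itgb2, the integrin beta chain of complement receptors 3 and 4, fell to 0.98 and 1.02 FPKM in Test3 from 1.94 to 3.76 FPKM in Test1 and Test2 (log2 difference -0.98, SE 0.20, limma adjusted p = 0.0199). The terminal pathway genes Hc, C6, C8a and C8g stayed under 1 FPKM, and the C1q chains were not analysed here.

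**Figure D4:**
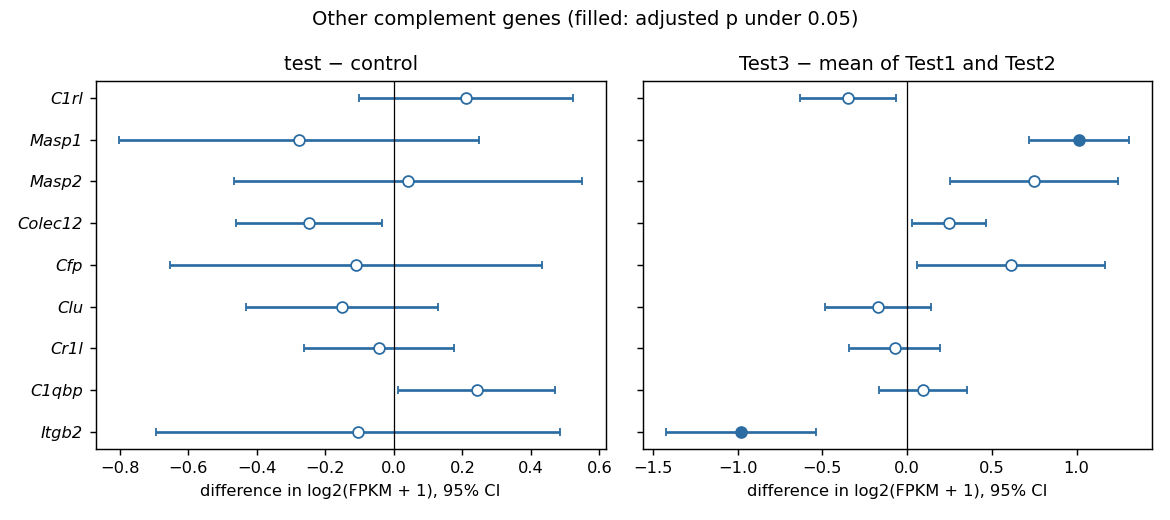
Differences in log2(FPKM + 1) with 95% confidence intervals (horizontal axes) of the 9 other complement genes that passed the filter, for test against control and for Test3 against the mean of Test1 and Test2; filled points had an adjusted p under 0.05. No gene passed in test against control, and Masp1 (1.01) and Itgb2 (-0.98) passed in Test3.

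For each tested member the 3 genes with the highest Pearson correlation of log2(FPKM + 1) over the 10 libraries were listed, as a description, since the 10 points share the 5 sets. They were Zbp1 (0.996), Apol10b (0.994) and Wars (0.992) for C1ra, and Irf8 (0.995), Serpina3f (0.994) and Nod1 (0.993) for C1s. For C4b they were Tmco4 (0.985), Slc6a9 (0.984) and Pcyt2 (0.980), and for C3 they were Nfkbiz (0.993), Pvr (0.988) and Slc11a2 (0.986). No gene stood on more than 1 of these lists. Zbp1, a nucleic acid sensor, ran like C1ra from 3.79 and 4.82 FPKM in Blank to 70.39 and 75.98 in Control, and was lower in Test3 (46.5 and 61.01) than in Test2 (94.74 and 93.03). Nfkbiz, which encodes a nuclear IκB protein, ran like C3 from 6.05 and 5.76 FPKM in Blank over 31.2 and 27.56 in Control to 51.4 to 79.74 in the test sets.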

How the data were processed

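The 10 libraries of PyMt cell RNA were sequenced by BGI on the Illumina HiSeq platform, and the authors aligned reads to mm10 with Bowtie and deposited 1 table of FPKM values with 2 decimals. The sources used here do not name the program that gave FPKM, its annotation, its strand setting or its handling of multiply mapped reads. Test (n = 6) and control (n = 4) libraries were compared in limma 3.58.1 (R 4.3.3) on log2(FPKM + 1), with a trend, for the 11169 genes that reached 1 FPKM in 4 or more libraries, at a Benjamini-Hochberg adjusted p of 0.05. A fold on this scale understates the change of low genes. The 5 label sets were compared in a second limma fit. The code was tested on simulated data. Single members were tested by exact permutation of libraries. Named genes are all 8 members, other complement genes that passed or averaged at least 10 FPKM, and the 3 best correlated genes per tested member. Members and lists were chosen with earlier results of these data known. Promoter sequences are from RefSeq. Alternatives covered pseudocount, filter, scaling, each library or set left out, blocking and either control tag alone. No 2 libraries shared identical values beyond 10 of 5713 genes at 10 FPKM or more.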

Additional observations from a re-analysis of the deposited data

Results flagged for a closer look

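C4b and C1ra differed between test sets: Test3 was below the mean of Test1 and Test2 by a log2 difference of -0.77 for C4b and -0.47 for C1ra, both tested within the fit of the 5 sets, while the same contrast did not pass for C1s or C3. Whether the genes differ from each other in this was not tested. C4b passed the filter on low values only through Control, Test1 and Test2. Cfb in Blank-2, at 0.08 FPKM, lay apart from the other 3 control libraries, which all read 0.11 FPKM. That gap is an estimated 1 read, and 1 of 16 groups looked at had such a value, where chance gives about 1 in 20.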

How the results depend on the processing

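The count of 4 members called in Control against Blank, all higher, stayed between 3 and 5 under all 18 alternatives (the fifth, with no filter, was Cd59a, which was lower), and C3 kept its call in test against control under 24 of 25. The count of 2 members called in test against control became 1 with no filter on low values, with a replicate block on the library number, with Control alone as control, without the set Test1, Test2 or Test3, and when label sets entered as a random effect; it became 0 with the label set as the unit and 4 with Blank alone as control. With each library left out it ran from 1 to 3. Deviations of same-numbered libraries correlated between -0.52 and 0.26 over 10 pairs of sets, with 1 over 0.1. No common pairing by library number was thus seen. The 10 pairs share 5 sets of 2 libraries, so this check cannot decide whether some libraries were paired. Against Control alone C4b turned to -0.19. The count for the test sets against Control (2) ran from 1 to 2 with each library left out. The count for Test3 (2) became 1 with a pseudocount of 0.01 (C4b adjusted p = 0.0696), with the minimum raised to 5 FPKM (C4b not tested) and with each library scaled to the same sum (C1ra adjusted p = 0.0557), and ran from 0 to 2 with each library left out. For Test1 against Test2 the C1s difference, -0.01, turned to 0.084 with each library scaled to the same sum and 0.043 with median-of-ratios scaling, and ran from -0.14 to 0.12 with each library left out. The count of 0 other complement genes in test against control became 1 without the set Test2 (C1qbp, 0.33, adjusted p = 0.0435) and 1 without the set Test3 (Masp1, -0.61, adjusted p = 0.0283). The count of 5 single members under 0.05 ran from 3 to 5. Over all genes, the 879 called in test against control became 145 without either Blank library, 1459 without Control-1 and 44 against Control alone. That total was 1711 against Blank alone, 302 with sets as a random effect, 554 with the replicate block and 548 with no filter. It was 191 without Test1, 933 without Test2 and 362 without Test3, and 0 when sets replaced libraries as the unit. The member counts should be read beside these totals. The cause of these changes was not tested. Depth limits Cfb, Serping1, Cd55, Cd59a and C4b in Blank, which rest on an estimated 38 reads or fewer per library.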
